A study of Mus musculus with 4 samples.

Results

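Pancreatic natural killer (NK) cells were taken from the 2 pancreas libraries of a mouse single-cell RNA-seq series by a rule on 8 genes. A cell barcode was a member when it held at least 2 raw UMIs (unique molecular identifiers, one per captured transcript) summed over Ncr1, Klre1, Klra8 and Klra4. It also had to hold no UMI of Cd3e, Cd3d or Cd79a and at most 2 of Lyz2, which keeps out T cells, B cells and most myeloid cells. Barcodes under 500 genes or over 10% mitochondrial UMIs had been set aside first. The rule found 534 members among 10794 kept pancreas barcodes, of 19357 kept in all 4 libraries and 21074 listed. There were 230 in the control library and 304 in the CD4-Cre library.

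Both pancreas libraries held leukocytes sorted by flow cytometry for CD45 from pre-diabetic females at 12 weeks of age, with the cells of 4 mice per genotype pooled in 1 library. The mice of both groups carried floxed Ocab alleles (Ocabfl/fl). The second group also carried CD4-Cre (Ocabfl/fl.CD4-Cre), in which Cre recombinase is driven from the Cd4 promoter, active in T cells and their thymic precursors. Ocab is another name of Pou2af1, a transcriptional coactivator best known from B cells. The other 2 libraries held CD3 T cells, selected by magnetic separation from pancreatic lymph nodes of females aged 8 weeks with 5 mice per genotype, and only 2 barcodes of the control one and 0 of the CD4-Cre one met the NK rule. The strain is not named in the labels used here.

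NK cells are innate lymphocytes that kill stressed or infected cells without a rearranged antigen receptor. In the mouse, whether they act is set by a balance between activating receptors, such as NKp46 (Ncr1) and NKG2D (Klrk1), and inhibitory receptors that read MHC class I, which include many members of the Ly49 family (Klra genes). Ly49 genes differ in number and sequence between inbred strains, and each cell expresses only some of them. Mature NK cells carry granules of perforin and granzymes and depend on the transcription factors T-bet (Tbx21) and Eomes. A related tissue-resident population, type 1 innate lymphoid cells (ILC1), shares NKp46 with them and is usually marked by Itga1, Cxcr6 and Il7r.

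The 250 bases upstream of the RefSeq start (GRCm38.p6) are shown for the 4 genes that define the members, because the values below start from them, and for Klra1 and Cxcr6, because differences between the libraries and among the members turn on these 2 genes. Capitals mark each match, on either strand, to TGTGGT (core letters bound by RUNX factors) or TCACAC (core letters bound by T-box factors such as T-bet and Eomes). These letters were found in 14% and 12.3% of 32851 mouse promoter windows of that length, and a match is a description, not a binding site. Ncr1 (chr7:4337465-4337714, plus strand) held RUNX letters 176 and 41 bases upstream of the start and T-box letters 80 bases upstream. Klre1 (chr6:129577963-129578212, plus strand), Klra1 (chr6:130386875-130387124, minus strand) and Cxcr6 (chr9:123806227-123806476, plus strand) each held RUNX letters, at 229, 201 and 10 bases upstream.
Ncr1: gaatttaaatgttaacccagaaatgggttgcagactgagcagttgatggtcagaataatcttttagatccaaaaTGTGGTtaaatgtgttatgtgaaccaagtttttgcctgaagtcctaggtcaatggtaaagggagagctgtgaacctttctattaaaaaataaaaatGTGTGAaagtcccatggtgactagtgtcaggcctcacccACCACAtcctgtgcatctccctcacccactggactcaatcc
Klre1: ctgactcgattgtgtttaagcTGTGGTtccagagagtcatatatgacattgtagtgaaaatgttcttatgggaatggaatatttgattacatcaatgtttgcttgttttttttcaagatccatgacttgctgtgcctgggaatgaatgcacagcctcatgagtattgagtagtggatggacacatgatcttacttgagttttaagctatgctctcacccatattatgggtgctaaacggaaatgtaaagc
Klra1: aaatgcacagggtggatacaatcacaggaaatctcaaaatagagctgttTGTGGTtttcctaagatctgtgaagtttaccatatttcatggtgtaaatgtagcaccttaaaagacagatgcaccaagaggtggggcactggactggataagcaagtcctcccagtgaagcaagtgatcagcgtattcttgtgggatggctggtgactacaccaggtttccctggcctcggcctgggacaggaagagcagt
Cxcr6: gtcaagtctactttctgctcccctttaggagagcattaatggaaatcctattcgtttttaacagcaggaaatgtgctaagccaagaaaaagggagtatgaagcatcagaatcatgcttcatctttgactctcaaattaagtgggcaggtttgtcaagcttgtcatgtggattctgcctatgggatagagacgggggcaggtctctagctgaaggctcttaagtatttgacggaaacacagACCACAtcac

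Klra4 (chr6:130067272-130067521, minus strand) and Klra8 (chr6:130129899-130130148, minus strand) held neither set of letters in their windows. They are shown together because both are rule genes and their windows are alike, with 212 of 249 aligned bases identical (84.5% of the alignment, gaps included). Capitals in the next pair of sequences mark the bases that differ or have no partner. The likeness of the Ly49 genes matters for the counts. Of the stretches of 90 bases within the first 500 bases of annotated transcripts, 38.4% of those of Klra8 also occurred in the pseudogene Klra14-ps, while 0 did so for Klra1, Klra4, Klra7, Klra9 and Klra10. Reads from 1 copy could be counted on another where they match, and reads of another strain's copies are counted on the reference's genes.
Klra4: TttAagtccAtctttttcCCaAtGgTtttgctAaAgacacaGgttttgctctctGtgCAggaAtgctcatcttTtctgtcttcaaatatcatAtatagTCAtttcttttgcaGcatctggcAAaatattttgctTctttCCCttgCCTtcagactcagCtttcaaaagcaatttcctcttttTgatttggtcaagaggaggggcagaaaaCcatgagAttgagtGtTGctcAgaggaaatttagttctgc
Klra8: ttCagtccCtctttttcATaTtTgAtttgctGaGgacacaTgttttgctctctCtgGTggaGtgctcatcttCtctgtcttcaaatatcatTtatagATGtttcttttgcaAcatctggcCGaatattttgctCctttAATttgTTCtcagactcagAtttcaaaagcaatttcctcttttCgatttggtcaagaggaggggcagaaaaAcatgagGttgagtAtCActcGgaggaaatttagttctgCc

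The 2 pancreas libraries had like depth, with medians of 3655.5 and 3680 UMIs per kept barcode in control and CD4-Cre. NK barcodes had medians of 3751 and 3997.5 UMIs, and their summed UMIs were 911755 and 1380820. The cells of a library share their mice and their preparation and are not replicates. With 1 library per genotype every difference given here is between libraries, no test between genotypes was possible, and all 95% intervals cover counting error only. No NK barcode sequence was shared by the 2 libraries. Levels are given as CPM, the UMIs of a gene scaled to 1000000 UMIs of the class, which depend on how many transcripts of a gene were captured from its 5′ end, so genes are compared with themselves across cells and not with each other. The gene targeted in the study, Pou2af1, was all but missing from NK cells, with 0 UMIs in control and 1 in CD4-Cre, so its deletion could not be read there. In T cells without Cd79a or raised Lyz2 it stood at 5.90 CPM in control and 0.705 CPM in CD4-Cre.

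Marker genes that the rule did not use were also high in the members. Klrb1c, which encodes NK1.1, stood at 358 CPM in control and 349 CPM in CD4-Cre NK cells, against 0.768 and 0.517 CPM in the T cells of the same libraries (2157 and 3997 barcodes with a Cd3e or Cd3d UMI and none of the 4 rule genes). Among all genes compared, 6.3% were past 2-fold higher in NK than in T cells in both libraries and 11.3% were past 2-fold lower. All 18 NK markers listed, 4 of them rule genes, were past 2-fold higher in both libraries, and 13 of 15 T cell markers were past 2-fold lower. Barcodes with a marker sum of at least 2 and 3 or more Cd3e or Cd3d UMIs are in neither class. Those that met the Cd79a and Lyz2 conditions had Klrb1c at 77.1 and 106 CPM. The rule divides these same cells, so the Klrb1c levels and both counts describe the cells it chose and support nothing further.

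Some genes that belong to other leukocytes were low or missing, and others were not. Cd6, a T cell surface protein, was at 0 in both libraries, and Cd5 had 1 and 3 UMIs. Of the lists of other cell types, Pax5 (B cells), Mzb1, Sdc1 and Derl3 (plasma cells), Adgre1 and Ms4a7 (macrophages), Csf3r and Cxcr2 (neutrophils), Il1rl1, Areg, Il5 and Il13 (type 2 innate lymphoid cells) and Il22, Il17a and Il23r (type 3) were at 0 in both. These were a part of each list, and other listed genes were counted. The genes at 0 in both libraries were 2 of 9 for B cells, 3 of 5 for plasma cells, 2 of 11 for myeloid cells, 2 of 5 for neutrophils, 5 of 10 for type 2 and 3 of 6 for type 3 innate lymphoid cells. The summed B cell markers stood at 159 and 150 CPM, against 866 and 676 CPM in T cells, with Ighm making up most of them (150 and 137 CPM). The summed plasma cell markers stood at 86.6 and 137 CPM against 625 and 439 CPM, and those of neutrophils at 5.48 and 4.35 CPM against 4897 and 1497 CPM. Summed myeloid markers were not low throughout, at 909 and 1506 CPM against 1341 and 1242 CPM in T cells and 749 and 665 CPM in B cells. Of the 11 myeloid genes, 3 were past 2-fold higher than in T cells in both libraries and 6 past 2-fold lower. The NK rule limits Cd79a and Lyz2 and the T cell class does not, so these differences were set in part by the rule. Of the T cell barcodes, 9.41% in control and 8.53% in CD4-Cre held Cd79a or more than 2 Lyz2 UMIs. The type 3 markers summed to 8.77 and 13.04 CPM. The type 2 markers summed to more than in T cells, at 362 and 371 CPM against 143 and 127 CPM. Most of that came from Klrg1 (222 and 227 CPM) and Gata3 (103 and 91.3 CPM), which NK cells also express. T cell receptor constant genes were not all low. Trac was low, at 12.1 and 15.9 CPM against 306 and 245 CPM in T cells. Trdc stood at 165 and 111 CPM, above the 23.7 and 13.3 CPM of T cells. Trbc2 stood at 195 and 143 CPM against 413 and 276 CPM. Cd3g, a chain of the receptor complex, was found in 26.5% and 27.6% of NK barcodes at 196 and 173 CPM, against 1125 and 1099 CPM in T cells. The 7 markers of gamma-delta and NKT cells summed to 224 and 174 CPM against 119 and 62.2 CPM in T cells, with Tcrg-C1 and Cd163l1 at 0. The summed T cell markers were 841 and 701 CPM in NK cells and 4893 and 4556 CPM in T cells, and their part in the results below was not tested beyond the alternative that also asks for no Cd3g and no Trac UMI.

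**Figure D1:**
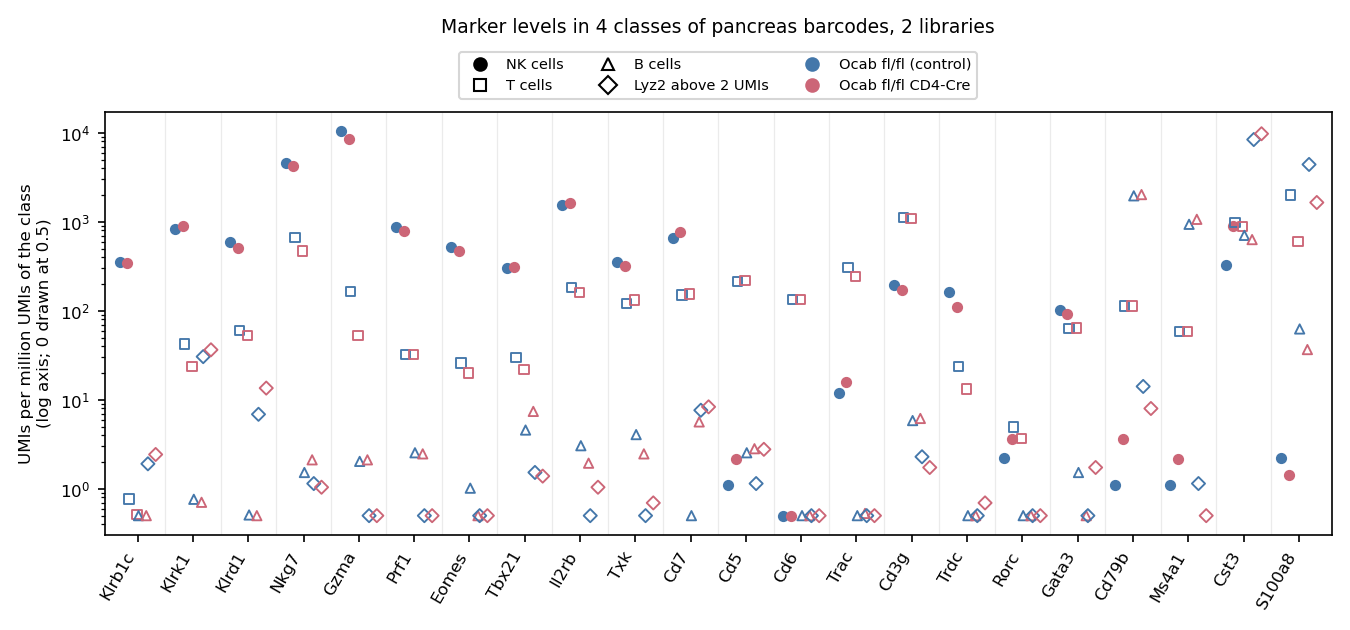
Levels of marker genes that the rule did not use, in CPM on a log axis (0 drawn at 0.5), in NK, T, B and Lyz2-rich barcodes of the control (blue) and CD4-Cre (red) libraries, 1 point per class and library. Klrb1c lies at 358 and 349 CPM in NK cells and below 1 CPM in T cells, and Cd6 lies at 0 in NK cells.

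A few members did not look like the rest. There were 1 control and 3 CD4-Cre barcodes with at least 10 UMIs of the class II gene H2-Aa. One CD4-Cre barcode had 29262 UMIs in all, the most of any member, with 860 of Cst3, 588 of H2-Aa, 10 of Clec9a and 7 of Xcr1, genes of dendritic cells, and 0 of Klre1, Klra8, Klra4 and Gzma. Another had 62 UMIs of Bst2 and 9 of Siglech, genes of plasmacytoid dendritic cells, and entered through 2 UMIs of Klra8. The summed myeloid markers were 909 CPM in control and 1506 CPM in CD4-Cre, and 875 CPM in CD4-Cre without those 3 barcodes. Some results that rest on these barcodes are given with and without them. The division by Cxcr6 below is given only with them. The largest barcode falls on its side with Cxcr6, since it held 106 Ly6e UMIs and all CD4-Cre members without Cxcr6 held 49.

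How strictly the rule chose can be read at its edges. The marker sum had a median of 16 in control and 17 in CD4-Cre, and all 4 genes were present in 53.0% and 54.6% of members. Only 3 barcodes in each library entered with a sum of exactly 2, with Nkg7 at 1986 and 2130 CPM. Those with a sum of 1 numbered 6 and 5 and had Nkg7 at 105 and 45.8 CPM. Of 549 and 739 barcodes with a sum of at least 2, the Cd3e and Cd3d condition removed 295 and 411. Among those that met the Cd79a and Lyz2 conditions, 31 and 53 held just 1 or 2 such UMIs, with Gzma at 6642 and 5455 CPM and Trac at 80.4 and 18.7 CPM. The 231 and 312 barcodes with 3 or more had Gzma at 2368 and 1702 CPM and Trac at 163 and 128 CPM.

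All genes of the rule were seen in most members. Ncr1 was found in 98.7% of barcodes in each library, at 1971 and 2026 CPM, and Klre1, a lectin-like receptor, in 88.7% and 87.5%, at 769 and 699 CPM. Klra8, which encodes the activating receptor Ly49H, was found in 62.2% and 63.2%, at 566 and 565 CPM. Klra4, which encodes the activating receptor Ly49D, was found in 75.7% and 71.1%, at 1015 and 823 CPM, a log2 ratio of -0.30 (-0.43 to -0.17). The other 3 genes differed by at most 0.14 on the log2 scale between libraries.

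Among genes outside the rule, those furthest above T cells in both libraries were again mostly receptors of the NK gene complex on chromosome 6. The 15 with the highest ratios held Klra9, Klra10, Klra7 and Klra1 of the Ly49 family, Klrb1c, Klrb1a and Klrb1f of the NKR-P1 family, Klrc3, and Klri2, a partner of Klre1. Klra9 stood at 474 and 445 CPM, with log2 ratios over T cells of 10.49 and 9.92, and Klrb1a at 722 and 743 CPM, with 7.78 and 7.70. Klra10 had 52 and 64 NK UMIs against 0 and 1 in T cells. The rule chose members by genes that include Klre1, Klra8 and Klra4, also on chromosome 6, and the T cells held none of these. The place of related receptors in this ranking was therefore set in part by the rule, and the ratios describe the cells it chose. Ranked genes also needed at least 50 NK UMIs in each library, with no such minimum in T cells.

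The same 15 also held secreted and intracellular proteins. Cma1, a chymase best known from mast cells, stood at 228 and 185 CPM. T cells had 1 UMI of it in control, a log2 ratio of 11.02 (8.53 to 16.33), and 0 in CD4-Cre, where NK cells were at least 10.06 log2 units higher with a floor of 3 counts over the class. Serpinb9b, a relative of the granzyme B inhibitor, stood at 135 and 169 CPM against 0 and 1 UMI in T cells. In control it was at least 8.68 log2 units higher by the same floor. Fcrl6, Spry2, Adamts14 and Aoah completed the set, with ratios from 6.30 to 7.62. None of the 5 markers asked of mast cells and basophils was counted in control, and 2 UMIs of them were counted in CD4-Cre.

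Among genes with at least 50 NK UMIs in each library, the 10 furthest below T cells included parts of T cell receptor signalling and activation. Genes scarcer in NK cells, such as Cd5, Cd6 and Ifi27l2a, could not enter this ranking. Lat, the adaptor of the T cell receptor, stood at 102 and 104 CPM in NK cells against 735 and 735 CPM in T cells, with log2 ratios of -2.85 and -2.83. Cd3g, Cd28, Ltb, Foxo1, Ms4a6b, Smc4 and Emb were also among the 10. Cd74, the class II invariant chain, had -5.85 and -2.77, and both values moved with the choice of barcodes. With a marker sum of at least 1 they were -0.59 and -2.23. Without T cell barcodes that also held Cd79a or more than 2 Lyz2 UMIs (9.41% and 8.53% of them), they were -3.46 in control and 0.87 in CD4-Cre, where 734 of its 888 NK UMIs came from the largest barcode.

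The receptor lists covered both arms of NK recognition. Of 15 activating receptor genes, 10 were past 2-fold higher than in T cells in both libraries and 1 was past 2-fold lower. The T cells held no UMI of the rule genes by definition, so any rule gene in a receptor list was bound to be higher. The counts of higher genes were to that extent set by the rule. Klrk1, which encodes NKG2D, stood at 826 and 896 CPM against 42.4 and 23.8 CPM. Of 18 inhibitory receptor genes with enough UMIs, of 20 listed, 10 were past 2-fold higher and 3 past 2-fold lower. Klrd1, the CD94 chain that pairs with NKG2 proteins, stood at 599 and 511 CPM against 59.7 and 52.5 CPM. Pdcd1, the checkpoint receptor PD-1, went the other way, with 5.48 and 19.6 CPM against 74.6 and 67.7 CPM.

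The adaptors that carry signals from activating receptors were high. Fcer1g, a signalling chain used by NKp46, stood at 2744 and 2637 CPM against 165 and 176 CPM in T cells. Tyrobp, which encodes DAP12, the partner of Ly49D and Ly49H, stood at 3195 and 2872 CPM against 215 and 212 CPM. Hcst, which encodes DAP10, had smaller ratios of 0.93 and 0.80. Over the 17 adaptors measured, 7 were past 2-fold higher and 3 past 2-fold lower, with medians of 0.93 and 0.80 against 0.10 and 0.12 for all genes.

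Genes of the killing machinery were higher in NK cells than in T cells. Gzma, granzyme A, stood at 10383 and 8586 CPM in NK cells and 166 and 52.8 CPM in T cells. Prf1, perforin, stood at 868 and 784 CPM against 32.5 and 32.2 CPM. Gzmk, granzyme K, did not follow them, with 41.7 and 47.1 CPM against 81.3 and 58.2 CPM. Of 19 cytotoxic genes measured, 10 were past 2-fold higher and 0 past 2-fold lower. Ccl5, a chemokine of killer lymphocytes, stood at 18083 and 12137 CPM, against 3242 and 1911 CPM in all T cells but 11905 and 6811 CPM in the CD8 T cells among them (376 and 630 barcodes).

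Cytokine receptors and transcription factors of the NK program were high as well. Il2rb, the chain shared by the receptors of IL-2 and IL-15, stood at 1544 and 1630 CPM against 182 and 160 CPM in T cells. Il12rb2 and Il18rap, of the IL-12 and IL-18 receptors, had log2 ratios of 5.13 and 5.18, and of 3.88 and 4.35. Il7r, the IL-7 receptor, was low, at 48.3 and 44.2 CPM against 502 and 602 CPM. Eomes stood at 515 and 466 CPM against 25.9 and 20.1 CPM, and Tbx21 at 301 and 311 CPM against 30.2 and 21.8 CPM. Tcf7, a factor of early and naive lymphocytes, had ratios of -2.42 and -2.82. In these lists 8 of 19 cytokine receptors and 10 of 22 transcription factors were past 2-fold higher, and 5 and 4 past 2-fold lower.

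Receptors for migration were split. S1pr5, the sphingosine phosphate receptor used by NK cells to leave tissues, stood at 194 and 146 CPM against 6.36 and 1.90 CPM. S1pr1, its counterpart in T cells, stood at 17.6 and 28.2 CPM against 268 and 289 CPM, and Ccr7, which guides cells to lymph nodes, had 1 UMI in each library. Interferon response genes were lower in NK cells, with 8 of 18 past 2-fold lower, 0 past 2-fold higher and medians of -1.06 and -1.19. Ifi27l2a was the most uneven of them, at 12.1 and 6.52 CPM against 841 and 715 CPM. MHC class I genes had 0 of 11 past 2-fold in either direction.

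**Figure D2:**
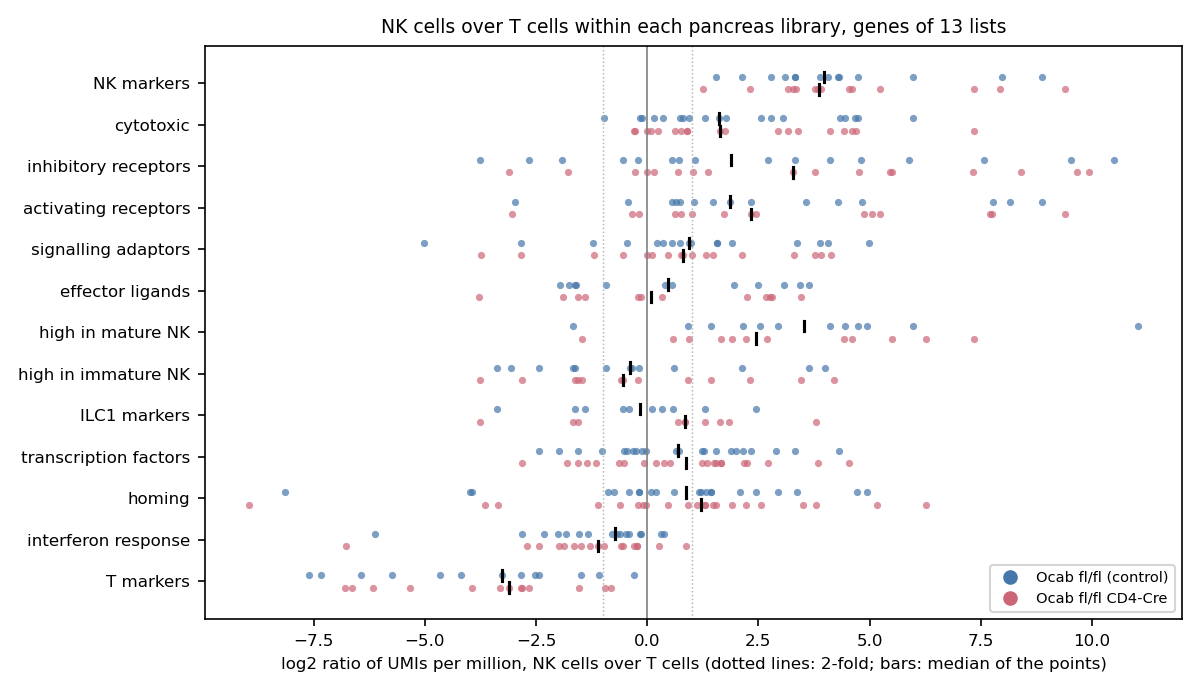
Log2 ratio of NK over T cells within each pancreas library (control blue, CD4-Cre red), 1 point per gene with UMIs in both classes, in rows for 13 gene lists, with the rule genes left out, dotted lines at 2-fold and a bar at the median of the points. NK markers, activating receptors and genes high in mature NK cells lie to the right of 0, and T markers and most interferon response genes to the left.

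Members differed among themselves in which Ly49 genes they carried. Over 9 Klra genes the median barcode had UMIs of 4 in each library, with a range from 0 to 7. Barcodes with none of the 9 made up 10.4% of control and 16.4% of CD4-Cre members (24 and 50 barcodes). Those with at least 5 made up 38.3% and 32.6% (88 and 99 barcodes). The 9 genes included the rule genes Klra4 and Klra8, so these numbers were set in part by the rule. They were taken without thinning, so depth also enters them.

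A second division ran along Cxcr6, a chemokine receptor of lymphocytes that stay in tissue. It was chosen for a closer description after its values had been seen, and the rule did not use it. A Cxcr6 UMI was present in 51 of 230 control members (22.2%) and 100 of 304 CD4-Cre members (32.9%). Barcodes with it had medians of 4214 and 4340.5 UMIs, and those without it 3683 and 3890.5. Of 108 listed genes compared inside each library, 22 had an interval above 0 in both libraries, 28 had one below 0 in both and 1 had intervals on opposite sides. Over all 5508 genes with enough UMIs, 1.58% had an interval above 0 in both libraries and 1.43% had one below 0 in both.

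Members with a Cxcr6 UMI held more of the ILC1 markers. Of the 12 listed, Cxcr6 divides the members and 7 others had at least 20 UMIs in each library. All 7 (Il7r, Inpp4b, Itga1, Ltb, Tmem176a, Tmem176b and Tnfsf10) had an interval above 0 in both libraries. Tmem176b, a membrane protein of innate lymphoid and myeloid cells, stood at 366 CPM with and 21.6 CPM without Cxcr6 in control, and at 410 and 10.3 CPM in CD4-Cre. Tmem176a, its neighbour, had log2 ratios of 4.53 and 6.72. Il7r stood at 109.9 CPM with and 28.8 CPM without in control, and at 111.0 and 5.71 CPM in CD4-Cre. The barcodes with Cxcr6 held 24 of the 44 Il7r UMIs of control members and 56 of the 61 of CD4-Cre members. Itga1, which encodes CD49a, had ratios of 1.71 and 1.05, Ikzf2, which encodes Helios, of 2.89 and 2.80, and Tnfsf10, which encodes TRAIL, of 2.22 and 1.53. The chemokine Xcl1 stood at 2033 CPM with and 562 CPM without in control, and at 1211 and 442 CPM in CD4-Cre.

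The list of mature NK cells was lower there in part. Of 12 genes with enough UMIs, of 13 listed, 7 had an interval below 0 in both libraries (Cma1, Gzma, Gzmb, Klrg1, Prf1, S1pr5 and Zeb2) and 0 had one above 0 in both. The intervals of Cx3cr1 included 0 in both, with -1.14 (-2.85 to 0.22) and -0.79 (-2.06 to 0.34). Itgam had -0.44 (-1.60 to 0.58) in control and -2.49 in CD4-Cre, and Emb had 0.36 and 1.17. Of 12 genes of immature NK cells, 6 had an interval above 0 in both and 2 had one below. Cma1 stood at 27.5 CPM with and 291 CPM without Cxcr6 in control, and at 45.6 and 265 CPM in CD4-Cre. Klra7, which encodes the inhibitory receptor Ly49G, had ratios of -2.31 and -2.15, and Klra1 of -1.03 and -1.72. S1pr5 had -1.23 and -1.72, and Itga2, which encodes CD49b, -1.19 and -1.18. Gzma stood at 5590 CPM with and 11894 CPM without in control, and at 5073 and 10609 CPM in CD4-Cre. Eomes was lower by the same order, with -1.08 and -1.23, but was still 279 and 252 CPM in the barcodes with Cxcr6, far above the level in T cells. The rule genes Klra8 and Klra4 were lower too, with -1.31 and -2.48, and with -1.04 and -1.45. Ncr1 (0.09 and 0.08), Tbx21 (0.21 and -0.01) and Cd3g (0.13 and 0.22) were close to even. Ccl3 was the gene whose intervals lay on opposite sides of 0, at 0.73 in control and -2.19 in CD4-Cre.

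**Figure D3:**
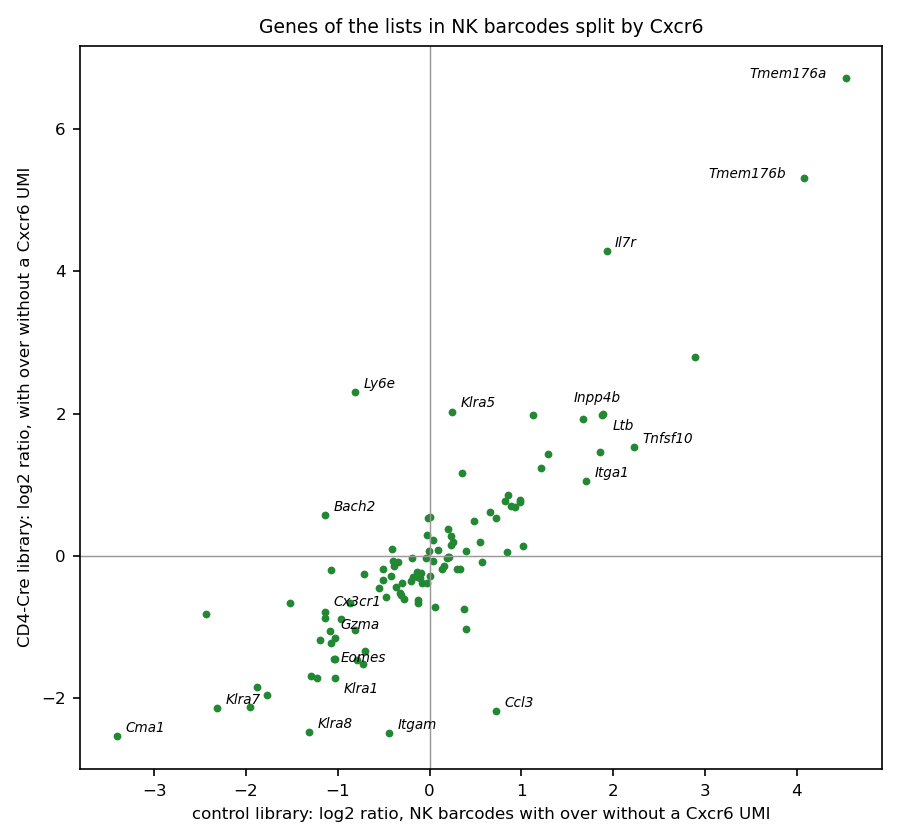
Log2 ratio of NK barcodes with over without a Cxcr6 UMI in the control library (horizontal) and the CD4-Cre library (vertical), 1 point per listed gene. Tmem176a, Tmem176b and Il7r lie at the upper right and Cma1 and Klra7 at the lower left in both libraries, and Ccl3 lies at 0.73 and -2.19.

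The design sets the CD4-Cre library beside the control for the same cells. The NK share of kept barcodes was 5.52% (4.84 to 6.26) in the control library. In the CD4-Cre library it was 4.59% (4.10 to 5.12), which is -0.93 percentage points away (-1.81 to -0.09). With every barcode thinned to 1000 UMIs before the rule was applied, the shares were 5.49% and 4.93%, and the interval of their difference, -0.56 points (-1.45 to 0.29), included 0. These are shares of sorted CD45 cells, so they move with every other class in the gate. Over the 7918 genes with enough NK UMIs, the ratio of CD4-Cre over control had a median of 0.01 on the log2 scale, and 9.02% of genes were past 1.5-fold higher and 8.36% past 1.5-fold lower. In T cells those shares were 3.85% and 6.32% of 11939 genes, where more barcodes give less counting error. The 24 genes named here are the 12 highest and 12 lowest ratios among 258 genes that were well counted, had intervals that did not overlap, and stood in NK cells at no less than 0.5 times their level in the other pancreas barcodes.

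Cxcr6 was among the 12 higher genes and had the narrowest interval of them. Its level was 154 CPM (140 UMIs) in control NK cells against 341 CPM (471 UMIs) in those of CD4-Cre. The log2 ratio was 1.15 (0.88 to 1.43). T cells had the opposite direction, where it stood at 204 and 139 CPM, a ratio of -0.56 (-0.64 to -0.47). CD8 T cells, where Cxcr6 marks resident memory, had -0.67. The ratio in NK cells was 1.18 without the class II barcodes and ranged from 1.10 to 1.29 over the alternatives tried. After every barcode was thinned to 1000 UMIs, Cxcr6 was found in 12.7% of control and 17.9% of CD4-Cre members, and the interval of that difference, 5.16 points (-1.15 to 11.2), reached across 0. Thinned to 2000 UMIs, it was 13.01 points (5.99 to 19.7).

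The other genes of the higher set were expressed at modest levels. Mcm5, part of the helicase that opens DNA for replication, stood at 14.3 and 40.6 CPM, a ratio of 1.51 (0.62 to 2.50), and T cells had 0.11. Bst2, the antiviral protein tetherin, stood at 41.7 and 109 CPM, a ratio of 1.38 (0.86 to 1.94). Without the class II barcodes its ratio was 0.57, since 1 barcode held 62 of its 150 CD4-Cre UMIs. Hsph1, a heat shock protein, stood at 28.5 and 69.5 CPM, a ratio of 1.29, and had 0.55 in T cells. Nbr1, Mrpl27, Dctpp1, Ppa1, Nutf2, Ccnt2, Ergic1 and Psmg4 had ratios from 0.97 to 1.25, and T cells had -0.03 to 0.35 for them.

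Klra1, which encodes the inhibitory receptor Ly49A, differed most among the 8 Ly49 genes with at least 20 UMIs. Its level was 665 CPM (606 UMIs) in control members against 351 CPM (485 UMIs) in CD4-Cre members, a ratio of -0.92 (-1.10 to -0.75). A Klra1 UMI was present in 79.1% of control and 63.5% of CD4-Cre barcodes. After thinning to 1000 UMIs it was present in 46.5% and 27.8%, with a difference of -18.7 points (-26.7 to -10.4). No thinned B cell barcode, 896 and 1314 of them, held a Klra1 UMI. Klra7 stood at 405 and 271 CPM (-0.58, -0.79 to -0.37), with thinned shares of 27.6% and 15.6%. Klra9 was close to even, at 474 and 445 CPM (-0.09, -0.27 to 0.09). Since Klra1 and Klra7 were lower in barcodes with Cxcr6, the ratio was also taken among members without a Cxcr6 UMI, where it was -0.68 (-0.87 to -0.50) for Klra1 and -0.41 (-0.63 to -0.18) for Klra7. Among members with a Cxcr6 UMI, Klra1 stood at 371 CPM (81 UMIs) in control and 143 CPM (72 UMIs) in CD4-Cre. Klra7 stood there at 101 CPM (22 UMIs) and 85.2 CPM (43 UMIs). A missing Cxcr6 UMI does not show that the gene was off.

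Chemokine and early response genes were among the lower 12. Ccl4, a chemokine that NK cells release on activation, stood at 1419 CPM in control and 634 CPM in CD4-Cre, a ratio of -1.16 (-1.29 to -1.04), and T cells had -0.86. A single control barcode held 178 of its 1294 UMIs, and the highest CD4-Cre barcode held 58 of 875. Its thinned shares were 37.3% and 30.1%, a difference of -7.15 points (-15.2 to 0.935), and at 2000 UMIs the difference was -15.2 points (-23.7 to -6.39). Fosb, an AP-1 subunit induced within minutes of stimulation or of tissue handling, stood at 113 and 42.7 CPM (-1.40, -1.89 to -0.93), and T cells had -0.48. Nr4a2, an early response nuclear receptor, stood at 114 and 54.3 CPM (-1.07), and T cells had -0.09. Over the list of stress and handling genes, 1 of 13 was past 1.5-fold higher and 2 past 1.5-fold lower, with a median of -0.23, and the part of handling in Fosb was not tested.

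Gramd1b, a sterol transport protein, had the lowest ratio, with 87.7 and 32.6 CPM (-1.43, -1.99 to -0.88). Vps37b, a part of the endosomal sorting machinery, stood at 149 and 77.5 CPM (-0.94), while T cells had 0.32. Khnyn and Mink1 each stood at 58.1 and 28.97 CPM, and Ssh1, B3gat3 and Zmym5 had ratios from -0.94 to -0.92. Gm42418 (-0.93 in NK and -0.76 in T cells) overlaps a ribosomal RNA repeat, so its counts are uncertain.

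**Figure D4:**
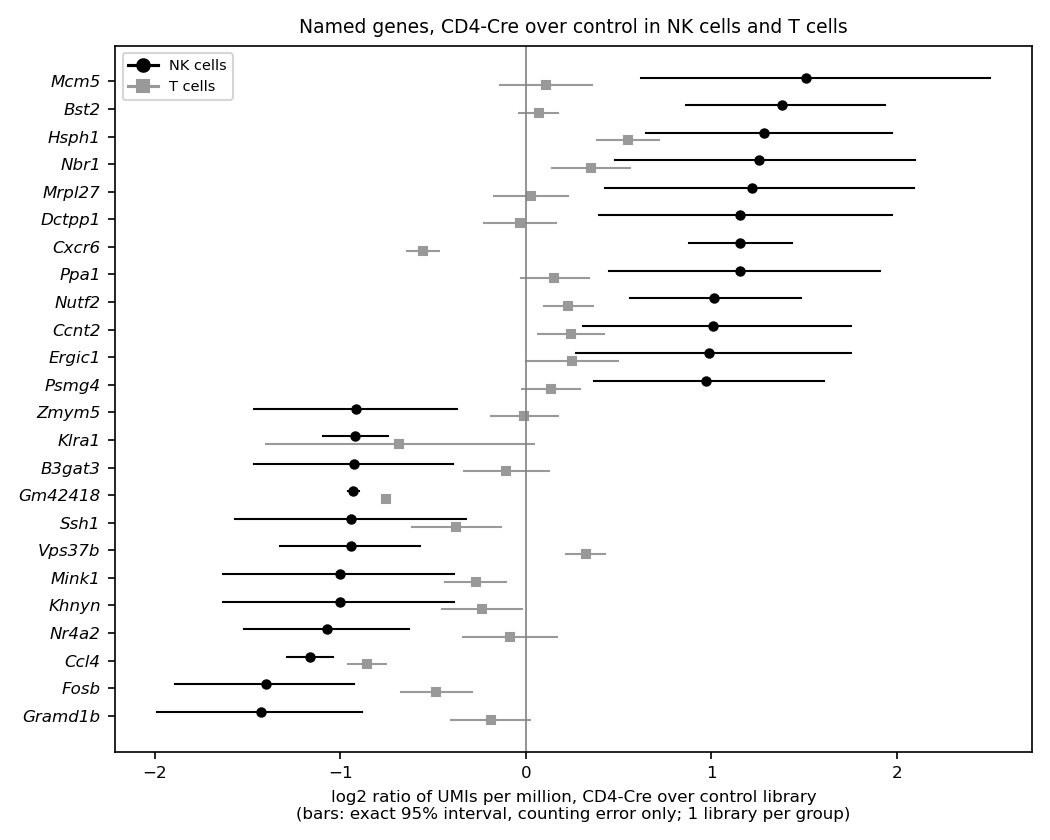
Log2 ratio of CD4-Cre over control for the 24 named genes in NK cells (black circles) and T cells (grey squares), with exact 95% intervals for counting error, 1 library per genotype. Cxcr6 lies at 1.15 in NK cells and -0.56 in T cells, and Vps37b at -0.94 and 0.32.

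Genes of mature NK cells were lower in the CD4-Cre library on balance. Of 12 measured, of 13 listed, 10 had ratios below 0, 4 were past 1.5-fold lower and 0 past 1.5-fold higher, with a median of -0.36. Itgam, which encodes CD11b, stood at 58.1 and 31.1 CPM (-0.90, -1.52 to -0.29), and Zeb2, a factor of terminal maturation, at 125 and 81.1 CPM (-0.62, -1.01 to -0.24). Gzmb, granzyme B, stood at 740 and 508 CPM (-0.54, -0.70 to -0.39). Klrg1, a receptor of late NK cells, did not share this, with 222 and 227 CPM (0.03). Gzma and Prf1 had smaller ratios of -0.27 and -0.15. T cells had a median of -0.42 over these genes, with 5 of 12 past 1.5-fold lower.

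The same ratios were taken on each side of the Cxcr6 division. Among members without a Cxcr6 UMI the ratios were -0.48 (-1.14 to 0.18) for Itgam, -0.43 (-0.85 to -0.01) for Zeb2, -0.20 (-0.52 to 0.12) for S1pr5 and -0.16 (-0.21 to -0.12) for Gzma. For Gzmb it was -0.61 (-0.78 to -0.44). Among members with a Cxcr6 UMI they were -2.53 (-4.66 to -0.74) for Itgam, -0.82 (-1.95 to 0.34) for Zeb2, -0.69 (-1.55 to 0.18) for S1pr5 and -0.14 (-0.24 to -0.04) for Gzma. Gzmb had the other sign there, at 169 and 343 CPM (1.02). Genes of immature NK cells had a median of -0.01 over 12 genes, with 1 past 1.5-fold higher and 1 past 1.5-fold lower. Thy1, a surface glycoprotein of T cells and of some NK cells, stood at 352 and 464 CPM (0.40, 0.20 to 0.60).

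ILC1 markers were mixed. Of 10 measured, of 12 listed, 6 had ratios above 0 and 4 below, 4 were past 1.5-fold higher and 0 past 1.5-fold lower, with a median of 0.25. The 4 were Cxcr6, Cd200r1 (11.0 and 26.1 CPM), Ckb (15.4 and 27.5 CPM) and Tmem176b (104 and 156 CPM, a ratio of 0.59, 0.23 to 0.95). The direction was not shared by Itga1, which stood at 77.9 and 65.2 CPM (-0.26), by Tnfsf10, at 46.1 and 34.8 CPM (-0.41), or by Il7r, at 48.3 and 44.2 CPM (-0.13). T cells had a median of -0.15 for the list.

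Medians of the effector ligand and receptor lists lay between -0.36 and -0.03. Of 8 effector ligands measured, of 15 listed, 6 had ratios below 0, with a median of -0.36, and 1 was past 1.5-fold lower and 0 higher, against 8.36% and 9.02% of all genes. Ccl5 stood at 18083 and 12137 CPM (-0.58, -0.61 to -0.54), with -0.76 in T cells, and Ifng, interferon gamma, at 169 and 130 CPM (-0.38). Activating receptors had a median of -0.03 over 15 genes with 1 past 1.5-fold lower and 0 past 1.5-fold higher, and cytokine receptors -0.07 over 17 genes with 0 past either. Inhibitory receptors had -0.12 over 16 genes. In that list Klra1, Klra5 (76.8 and 48.5 CPM) and Klrb1b (169 and 108 CPM) were past 1.5-fold lower, and Pdcd1 (5 and 27 UMIs), Cd200r1 (10 and 36 UMIs) and Lair1 (16 and 43 UMIs) past 1.5-fold higher, from few counts. For Klrb1b, 70.7% of its 5′ stretches of 90 bases also occur in the pseudogene Gm44511, so its count is uncertain. Transcription factors had -0.10 over 22 genes, with 4 past 1.5-fold lower, among them Nr4a1 and Tcf7, while Tbx21 (0.05) and Eomes (-0.14) were close to even. The remaining lists had medians of -0.15 over 19 cytotoxic genes, -0.06 over 17 adaptors, -0.09 over 20 homing genes, 0.04 over 13 interferon response genes and -0.01 over 11 MHC class I genes.

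Cell division genes were higher in CD4-Cre, but from few barcodes. All 11 with enough UMIs, of 15 listed, had ratios above 0 and 8 were past 1.5-fold higher, with a median of 0.82. Top2a, a topoisomerase of dividing cells, had no UMI in control (0) and 34 UMIs in CD4-Cre. A single barcode held 81 of the 120 UMIs of 7 division genes, and without it the median was 0.33. With no Cd3g or Trac UMI allowed in a member, the median was -0.018. At least 2 UMIs of the 7 genes were found in 0 of 230 control barcodes, which allows a share of up to 1.59%, and in 7 of 304 CD4-Cre barcodes (2.30%, 0.931 to 4.69).

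**Figure D5:**
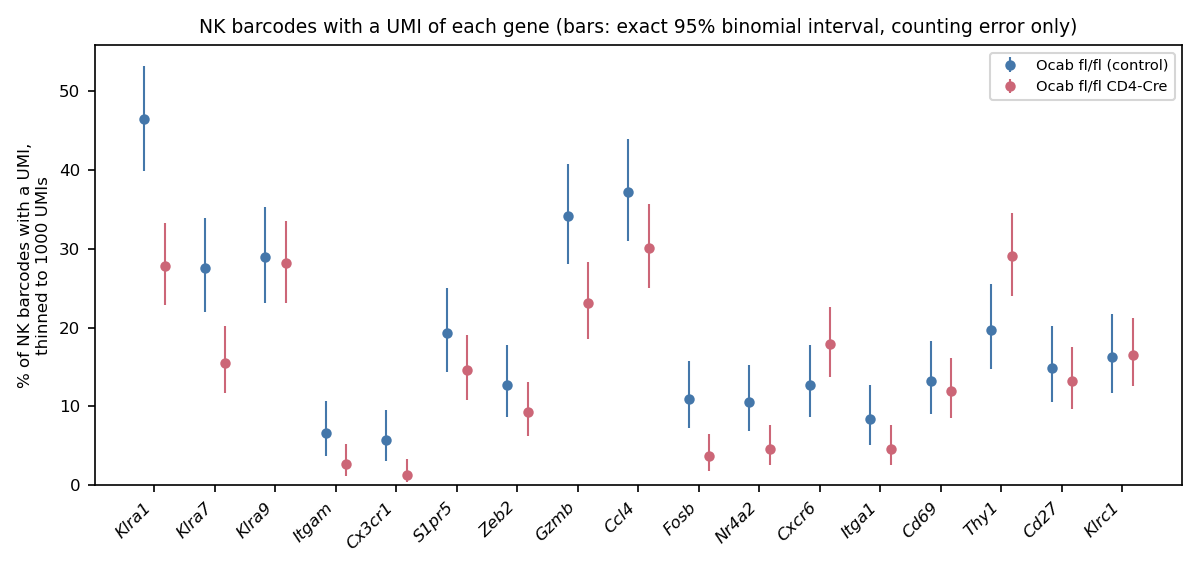
Share of NK barcodes with a UMI of each gene after thinning every barcode to 1000 UMIs (228 control and 302 CD4-Cre barcodes), in percent, control in blue and CD4-Cre in red, with exact 95% binomial intervals. Klra1 lies at 46.5% and 27.8% and Thy1 at 19.7% and 29.1%, and Klra9 is close to even.

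After thinning, the intervals of the differences lay below 0 for Klra1, Klra7, Gzmb, Itgam, Cx3cr1, Fosb, Nr4a2, Trbc1 and Trbc2, and above 0 for Thy1. Thinned to 2000 UMIs, the intervals stayed below 0 for Klra1, Klra7, Fosb and Trbc1, and included 0 for the other 6 genes. Gzmb was seen in 34.2% of control and 23.2% of CD4-Cre members (-11.0 points, -18.8 to -3.28), but at 2000 UMIs the difference was -3.31 points (-11.8 to 5.17). Itgam was seen in 6.58% and 2.65% (-3.93 points, -8.13 to -0.364), and Cx3cr1, the receptor of fractalkine, in 5.70% and 1.32% (-4.38 points, -8.27 to -1.28). At 2000 UMIs these 2 were -3.53 (-8.90 to 1.41) and -3.05 (-7.12 to 0.387). Thy1 was seen in 19.7% and 29.1% (9.40 points, 1.96 to 16.5), and at 2000 UMIs the difference was 7.57 (-0.986 to 15.9). Trbc1 was seen in 14.9% and 5.63% (-9.28 points, -14.9 to -4.13) and Trbc2 in 20.2% and 12.3% (-7.92 points, -14.5 to -1.64). T cells had differences of -3.42 and -8.68 points for these receptor chains. The intervals for the thinned shares of Klrg1, Klrc1, Cd27, Cd69, S1pr5, Zeb2 and Itga1 all included 0. No difference in these shares was detectable at this number of barcodes. The ratio of the summed Zeb2 level, given above, did have an interval below 0. The thinned set left out 2 barcodes per library with fewer UMIs.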

How the data were processed

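The deposited values were raw UMI counts per gene and barcode from 10x 5′ libraries, whole numbers with no normalization, and matrices written by software version 3.0.0, per the file headers. The submitters' processing notes name Cell Ranger and the mm10 build; its version, the annotation and the read length are not given in the sources used here. The matrices listed 4524 control and 6963 CD4-Cre pancreas barcodes with 20807342 and 32798133 UMIs. The lymph node libraries were used for no comparison, and the 2 barcodes there that met the rule are not among the members.

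For each library and class, the counts of its barcodes were added up and scaled to CPM (per 1000000 UMIs). Log2 ratios have exact conditional binomial intervals, levels exact Poisson intervals and shares exact Clopper-Pearson intervals at 95%, with Newcombe intervals for differences (Python 3.11.15, scipy 1.17.1). Thinning drew UMIs without replacement to 1000 per barcode. A gene with 0 counts in a class was given a floor of 3 counts. Genes entered a list or the background with at least 20 UMIs over both libraries in the classes compared. Without replicates no gene test was run. edgeR 4.0.16 and DESeq2 1.42.0 gave only alternative size factors. The ratio script was checked on simulated data.

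The members and all gene lists were chosen with earlier results of these data known. Named genes are those with at least 50 NK UMIs in each library that had the 15 highest and 10 lowest ratios of NK over T cells, ranked by the ratio nearer 0. For CD4-Cre over control they are the 12 highest and 12 lowest ratios among genes that reached 50 UMIs on the higher side, had 1 or more on the lower side and had Poisson intervals that did not overlap, at no less than 0.5 times the level in other pancreas barcodes. Neither set took genes of antigen receptors, haemoglobin, mitochondria, exocrine tissue or islets. Members of the fixed lists could be named as well. Some genes that met these rules are not reported here. Gene positions came from GENCODE M21 (all 342 identifiers looked up were found) and promoter sequences from RefSeq on GRCm38.p6. Doublets were left to the rule, and removal by Scrublet score (scanpy 1.11.5) was an alternative, beside other cutoffs of the rule, depth filters, weights, pseudocounts and minimum counts.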

Additional observations from a re-analysis of the deposited data

Results flagged for a closer look

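Of 342 genes examined, 10 had a ratio of CD4-Cre over control in NK cells opposite in direction to that in T cells of the same libraries, with both counting intervals leaving out 0. Each library is 1 preparation of pooled mice, so these were directions in single libraries, and the difference between NK and T cells was not tested for any of them.

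Cxcr6 had log2 1.15 in NK and -0.56 in T cells, and Pdcd1 had 1.83 and -0.14, from 5 and 27 NK UMIs. The NK value of Pdcd1 was 0.46 with a marker sum of at least 1 and 0.93 with a pseudocount of 10 CPM. Tmem176a had 0.49 and -0.25, and Ctsw, cathepsin W, had 0.24 and -0.16. Vps37b went the other way, with -0.94 in NK and 0.32 in T cells, as did Ccl3, with -0.40 and 0.25, and Klf2, a factor of quiescent lymphocytes, with -0.19 and 0.20. For Ccl3 the lower level was seen only in members with a Cxcr6 UMI, at 330 CPM (72 UMIs) in control and 53.5 CPM (27 UMIs) in CD4-Cre. In members without one it stood at 199 CPM (138 UMIs) and 244 CPM (214 UMIs), a difference that was not tested.

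For the other 3 genes the NK interval included 0 once 1 or a few barcodes were left out. Cst3 had 1.48 in NK and -0.16 in T cells, and -0.09 in NK without the barcodes rich in H2-Aa. Stmn1 had 0.84 and -0.16, and 0.33 (-0.05 to 0.72) without the barcode with the most division UMIs. Hmgb2 had 0.34 and -0.08, and 0.14 (-0.09 to 0.37) without that barcode.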

How the results depend on the processing

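No paired analysis was possible because each group had 1 library and the labels give no replicate numbers; for the same reason none could be left out. Across the alternatives run, 265 of 270 list medians, 664 of 689 CD4-Cre over control ratios and 476 of 508 NK over T ratios stayed within the counting interval of the reported value (for a median, its own interval), as did 59 of 62 values of gene counts and the NK share (for counts, within 1.5-fold). Staying within it does not fix the sign of a value near 0, as for inhibitory receptors, -0.12, which became 0.038 with a marker sum of at least 1. DESeq2 and TMM scaling moved all NK ratios by 0.0066 and 0.0014.

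Of the rest, single-gene ratios that moved without turning direction are not listed here, such as Ccl5, -0.58, and Gzma, -0.27, which were -0.48 and -0.17 with a sum of at least 1. The others were these. The median of cytokine receptors, -0.07, became 0.11 with a marker sum of at least 1, 0.12 with no Cd3g or Trac UMI allowed and 0.11 with equal weight per barcode, and that of adaptors, -0.06, became 0.035 with a sum of at least 1. With no Cd3g or Trac UMI allowed, the division median was -0.018, Stmn1 -0.27 and Hmgb2 -0.024. Cst3 became -0.17 with a sum of at least 1 and -0.088 without the barcodes rich in H2-Aa, and Klf2 became 0.014 with equal weights. With a pseudocount of 10 CPM, 259 genes were past 1.5-fold higher and 212 lower, against 714 and 662. Against CD8 T cells only, 464 genes were past 2-fold lower, against 1208 with all T cells. Cd74 in CD4-Cre was 0.87 against T cells without Cd79a or raised Lyz2, an alternative added after the data were seen, like those that leave out single barcodes. The Cxcr6 share difference was 13.01 points thinned to 2000 UMIs, against 5.16. Beyond the pseudocount, which pulls low genes toward 0, and the barcodes left out, the cause was not tested. Genes under about 20 UMIs, and shares from 230 and 304 barcodes, set the limit of what could be seen.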
